A study of Danio rerio with 16 samples.

Results

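The genes described here were chosen for one pattern in zebrafish liver: they were higher on an obesity diet in both types of fish that carry a src transgene. A gene was taken when it had a name, averaged at least 5 FPKM (sequenced fragments, corrected for the length of the transcript and for the number mapped in the library) over the 16 libraries, and had both obesity libraries above both normal-diet libraries in each of these types, with a difference of means of at least 0.8 on the log2(FPKM + 1) scale. Of 35868 genes in the table, 11955 had a name, 3212 of these reached 5 FPKM, and 59 of them met the thresholds, which is 1.84% of those eligible. Symbols with the prefixes rp, mrp, slc, cyp and ddx and a short list of others were set aside, which removed 6 genes (foxo1a, nop56, nopchap1, slc25a28, slc35f2, and slc7a3a) and left 53. The diet differences of the Src carriers chose these genes, so they are given below as values with no test. The fish without the src transgene played no part in that choice except through the mean of 5 FPKM, and only their contrasts were tested. The spread behind those tests was pooled over all 16 libraries, those of the Src carriers included. The rule asked for no overlap in the Src carriers, which favours genes with a small spread there. The p-values of the 53 genes are therefore not free of that choice.

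Liver RNA was sequenced in 16 libraries from 4 types of fish, all labelled as AB strain. HBx,Src(p53-), Src(p53-), and HBx(p53-) fish carry transgenes for src, for the hepatitis B virus X antigen (HBx), or for both under the promoter of fabp10a, a fatty acid binding protein gene of hepatocytes, and all 3 carry a p53 mutation. WT fish have neither transgene nor mutation, so each transgene and the p53 mutation cannot be told apart in a comparison with WT. Fish of 3 months were fed for 8 weeks. By the study's methods, all groups had about 0.22 g of powdered feed each morning. Beside this feed, fish on the normal diet (NOR) had 0.5 ml of Artemia in 1 daily meal. Overfeeding (DIO) gave 2 ml of Artemia 3 times a day. The high-fat diet (FAT) gave 0.22 g of high-fat food 3 times a day beside the normal ration. Src(p53-), HBx(p53-), and WT fish had 1 DIO, 1 FAT, and 2 NOR libraries each. HBx,Src(p53-) fish had 2 DIO and 2 NOR libraries and no FAT library, so the obesity diets of the types differ. DIO and FAT are called the obesity diet where they are pooled. A legend of the study's supplement counts 16 fish for the sequencing, as many as the libraries. Another legend, which names no platform, counts 1 fish for some groups that have 2 NOR libraries here. Each library was taken to come from its own fish, which is not certain. A difference between libraries of one group is then a difference between fish and their preparations. In Src(p53-), HBx(p53-), and WT the obesity libraries also differ in diet, as DIO or FAT. The spread behind the tests takes in that difference.

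The liver adjusts its transcripts to feeding. After a meal, insulin and amino acids act in mammals through the kinases AKT and mTOR, which hold FoxO transcription factors out of the nucleus and favour protein synthesis and ribosome assembly. Between meals these brakes are released, amino acid catabolism and fat release are favoured, and inhibitors of translation initiation such as the 4E-BP proteins become active. SRC is a membrane-tethered tyrosine kinase that passes growth signals into the same network, and p53 is a transcription factor that in stressed cells turns on cell-cycle arrest and cell-death genes.

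The table holds FPKM and no counts of reads, so the number of reads behind any value is unknown, and a gene listed at 0 has no stated limit. The FPKM of named genes were compared as deposited, and the median diet difference over the 3212 eligible genes was -0.06 in HBx,Src(p53-), -0.45 in Src(p53-), -0.10 in HBx(p53-), and 0.00 in WT on the log2 scale. The src gene itself had 3.47 and 4.34 FPKM on DIO, against 15.7 and 15 FPKM on NOR, in HBx,Src(p53-). It had 47.3 FPKM on DIO and 4.9 FPKM on FAT, against 14.2 and 20.3 FPKM on NOR, in Src(p53-), and 4.24 FPKM or less in every library without the transgene. For src the diets did not overlap in HBx,Src(p53-), with DIO lower, and overlapped in Src(p53-). The obesity values of 3.47, 4.34, and 4.9 FPKM in the Src carriers were near the highest value without the transgene. The part of the src level in the values of the 53 genes was not tested. Of 16 lists of cell-type markers, 0 had obesity sums above both NOR sums, and 0 below both, in both Src-carrying types. Taken apart, 3 lists were above and 1 below in HBx,Src(p53-), and 3 were above and 3 below in Src(p53-). Hepatocyte markers (6 of 15 matched, fgg the most abundant) summed to 29117 to 44502 FPKM on DIO, against 17187 to 20351 FPKM on NOR, in HBx,Src(p53-), while in Src(p53-) the obesity and NOR ranges overlapped at 12890.0 to 21701 FPKM and 19342 to 24760.0 FPKM. In Src(p53-), biliary markers (6 of 8 matched, none at 0 throughout) summed to 143 to 175 FPKM on the obesity diet, against 62.5 to 105 FPKM on NOR. There, exocrine pancreas markers (12 of 19 matched, ptf1a at 0 in every library) summed to 46 to 70.13 FPKM, against 8.69 to 28.02 FPKM. Stellate cell and fibroblast markers (11 of 11 matched, with desma, pdgfrb, and lum at 0 throughout) were higher on the obesity diet in Src(p53-), at 16.9 to 23.8 against 7.44 to 15.9 FPKM, and lower in HBx,Src(p53-), at 19.1 to 32.1 against 36.3 to 76.3 FPKM. Macrophage markers (5 of 9 matched) were higher in HBx,Src(p53-), at 1784 to 3134 against 1022 to 1317 FPKM, and lower in Src(p53-), at 944 to 1757 against 1974 to 2220 FPKM. Most of each sum was 1 gene, apoc1. It had 1730 and 3070 FPKM on DIO, against 970 and 1280 FPKM on NOR, in HBx,Src(p53-). In Src(p53-) apoc1 had 1710 FPKM on DIO and 902 FPKM on FAT, against 1930 and 2170 FPKM on NOR. These sums therefore describe apoc1 more than macrophages. Endocrine pancreas and intestine markers were also lower on the obesity diet in Src(p53-), at sums of no more than 4.02 FPKM in any library of that type. Of the endocrine markers (7 of 7 matched) isl1a was at 0 throughout. Of the intestine markers (6 of 8 matched) vil1, cdx1b, and cdx1a were. The other list above NOR in HBx,Src(p53-) was that of heart and muscle (13 of 14 matched), at 7.69 to 19.9 against 5.26 to 7.17 FPKM. Of its markers, cmlc1, tnnt2a, tnni1b, actc1a, nppa, myhz1.2, ckma, and mylpfa were at 0 in every library, and myl7 was the most abundant. That sum therefore rests on a few genes of the list. The part of these cells in the results was not tested, and in bulk liver fewer cells of a type and less RNA per cell cannot be told apart. None of the 53 genes was on a marker list, but the lists are short selections, so a gene of the set may still mark one of these cell types.

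Among the 53 genes, the difference between obesity diet and NOR had a median of 1.75 and a range of 0.81 to 3.88 in HBx,Src(p53-), and a median of 1.52 and a range of 0.81 to 3.69 in Src(p53-). It was 1 or more in both types for 45 genes and 2 or more in both for 9. The larger difference was in HBx,Src(p53-) for 30 genes and in Src(p53-) for 23. The mean level of the 53 genes ran from 5.1 to 882 FPKM with a median of 24.6, against a median of 17.6 FPKM over the eligible genes. A library of HBx,Src(p53-) on DIO was the highest of all 16 for 36 genes, and an obesity library of either Src carrier for 42. At the low end, a NOR library of a Src carrier was the lowest of 16 for 33 genes. These ranks rest on the values the rule used, so nothing is read from them. The genes lay on 22 chromosomes or scaffolds with at most 4 on one. In the RefSeq order of another assembly, 0 pairs had fewer than 5 genes between them. Clustering in the genome was not tested.

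**Figure D1:**
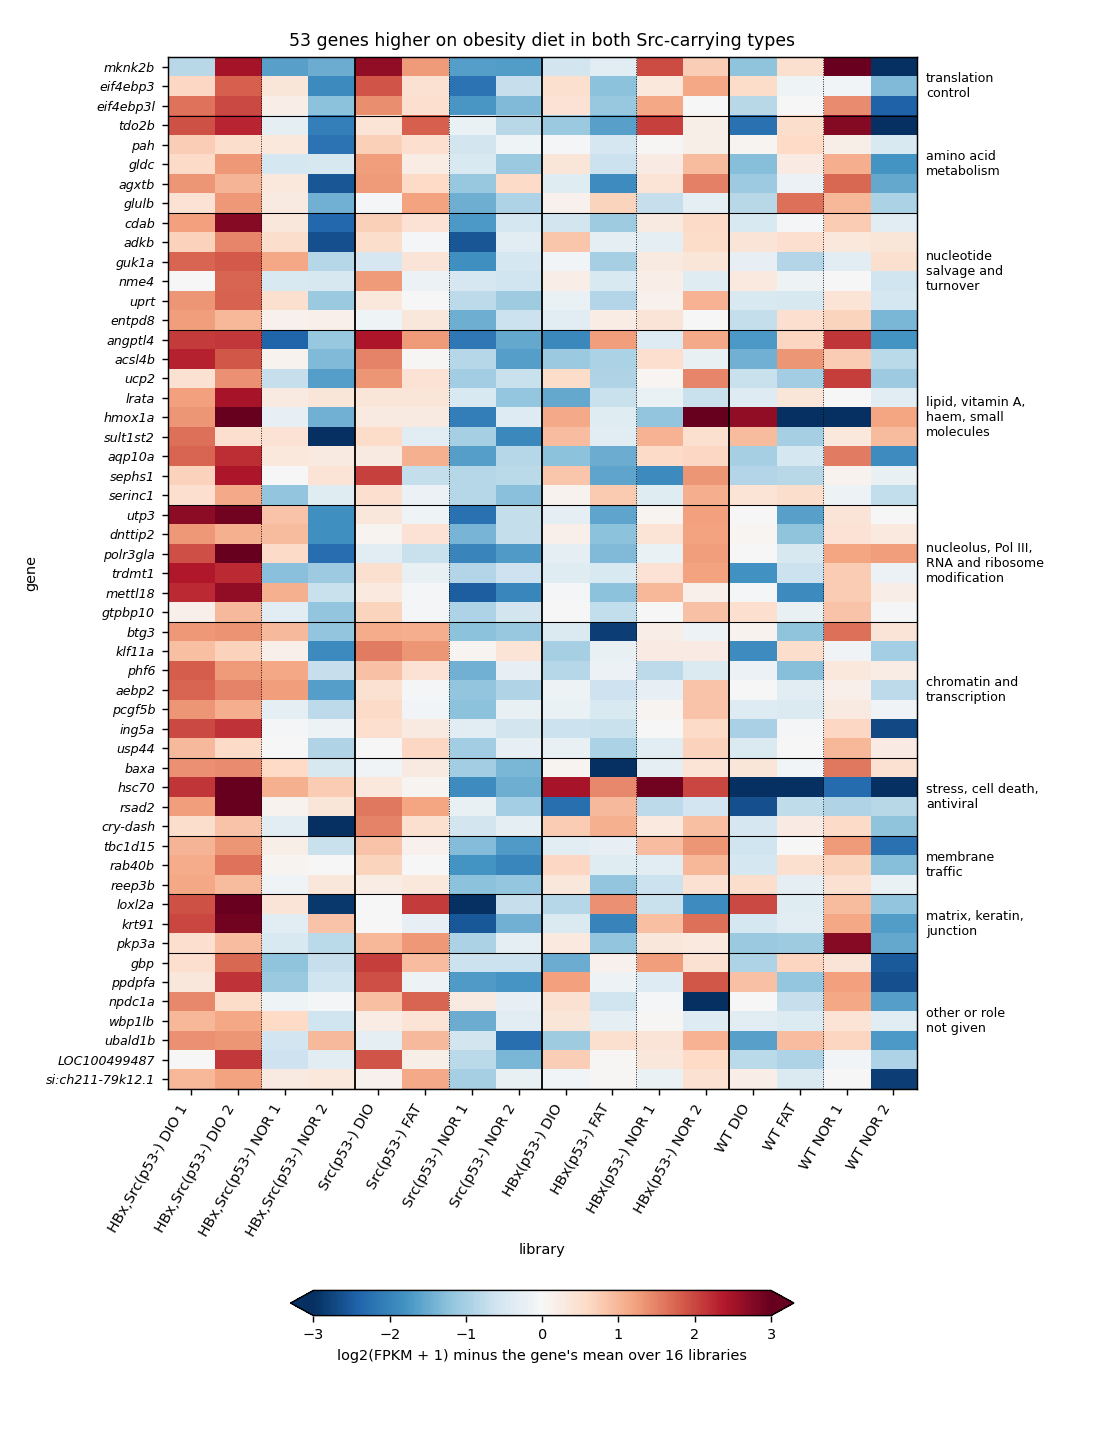
Level of each of the 53 genes (rows, grouped by role) in each of the 16 libraries (columns), as log2(FPKM + 1) minus the gene's mean over the libraries. Colours are cut at -3 and 3. Columns run by type of fish, with obesity libraries left of the NOR libraries of the same type. Above the 16-library mean (red) are 52 and 53 of the genes in the DIO libraries 1 and 2 of HBx,Src(p53-), and 46 in the DIO and 37 in the FAT library of Src(p53-). In NOR libraries 1 and 2 without src, 44 and 11 are above it in WT, and 32 and 41 in HBx(p53-).

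The roles used to order the genes below were assigned after their values were seen and are a description only. In translation control, 3 genes were chosen, with median differences of 2.32 in HBx,Src(p53-) and 2.63 in Src(p53-). mknk2b encodes a relative of the mammalian kinase MNK2, which phosphorylates the cap-binding factor eIF4E. mknk2b had 238 and 2412 FPKM on DIO, against 138 and 150.4 FPKM on NOR, in HBx,Src(p53-), a difference of 2.39, and 2695 FPKM on DIO and 1031 FPKM on FAT, against 135 and 133 FPKM on NOR, in Src(p53-), a difference of 3.63. In HBx(p53-) mknk2b had 289 FPKM on DIO and 342 FPKM on FAT, against 1649 and 710.2 FPKM on NOR (-1.78), and in WT 184 FPKM on DIO and 599.7 FPKM on FAT, against 3358 and 44.6 FPKM on NOR (-0.23). The DIO library 1 of HBx,Src(p53-) was far below library 2, and WT NOR 1 was above every other library. eif4ebp3 and eif4ebp3l encode 4E-BP proteins, which in mammals bind eIF4E and block cap-dependent initiation until mTOR phosphorylates them. The eif4ebp3 level in HBx,Src(p53-) was 177 and 402 FPKM on DIO, against 148 and 29.7 FPKM on NOR, and in Src(p53-) it was 426 FPKM on DIO and 159 FPKM on FAT, against 23.8 and 70.8 FPKM on NOR, with differences of 1.99 and 2.63. The level of eif4ebp3 was 159 FPKM on DIO and 48 FPKM on FAT, against 143 and 257 FPKM on NOR, in HBx(p53-), and 169 FPKM on DIO and 104 FPKM on FAT, against 108 and 44.9 FPKM on NOR, in WT, with differences of -1.12 and 0.92. eif4ebp3l differed by 2.31 in HBx,Src(p53-), with 52.6 and 66.9 FPKM on DIO, against 19 and 6.35 FPKM on NOR, and by 2.48 in Src(p53-), with 44.3 FPKM on DIO and 23.6 FPKM on FAT, against 4.16 and 5.9 FPKM on NOR. For eif4ebp3l, HBx(p53-) had 22.4 FPKM on DIO and 6.9 FPKM on FAT, against 37.5 and 16.3 FPKM on NOR (-0.93), and WT had 8.72 FPKM on DIO and 16.1 FPKM on FAT, against 45.6 and 2.23 FPKM on NOR (0.07). The 2 genes are near relatives, so reads shared between them could have been split by the counting. Both had the obesity libraries of the Src carriers above their NOR libraries, as the rule requires, and mixed orders in the fish without src.

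Enzymes of amino acid metabolism gave 5 genes, with median differences of 1.58 in HBx,Src(p53-) and 1.52 in Src(p53-). tdo2b encodes tryptophan dioxygenase, the first enzyme of tryptophan breakdown in liver. tdo2b had 192 and 249 FPKM on DIO, against 41.5 and 11.5 FPKM on NOR, in HBx,Src(p53-), a difference of 3.25, and 67.9 FPKM on DIO and 179 FPKM on FAT, against 43.7 and 27.8 FPKM on NOR, in Src(p53-), a difference of 1.63. The level of tdo2b was 22.7 FPKM on DIO and 15.8 FPKM on FAT, against 213 and 56.9 FPKM on NOR, in HBx(p53-), and 9.92 FPKM on DIO and 73.7 FPKM on FAT, against 348 and 3.3 FPKM on NOR, in WT, with differences of -2.48 and -0.44. In WT the 2 NOR libraries lay at opposite ends of all 16. pah encodes phenylalanine hydroxylase, which makes tyrosine. The pah level in HBx,Src(p53-) was 784 and 675 FPKM on DIO, against 582 and 101 FPKM on NOR, and in Src(p53-) it was 772 FPKM on DIO and 670.1 FPKM on FAT, against 321 and 428 FPKM on NOR, with differences of 1.58 and 0.95. For pah, HBx(p53-) had 461 FPKM on DIO and 332 FPKM on FAT, against 478 and 534 FPKM on NOR (-0.37), and WT had 495 FPKM on DIO and 713 FPKM on FAT, against 531 and 341 FPKM on NOR (0.48). agxtb encodes an aminotransferase that detoxifies glyoxylate with alanine as the amino donor. agxtb differed by 2.3 in HBx,Src(p53-), with 447 and 363 FPKM on DIO, against 222 and 28.9 FPKM on NOR, and by 1.22 in Src(p53-), with 432 FPKM on DIO and 271 FPKM on FAT, against 80.1 and 266 FPKM on NOR. In HBx(p53-) agxtb had 137 FPKM on DIO and 47.6 FPKM on FAT, against 235 and 509.9 FPKM on NOR (-2.08), and in WT 82.4 FPKM on DIO and 156 FPKM on FAT, against 586 and 61 FPKM on NOR (-0.74). Its HBx(p53-) libraries ran in the opposite order to those of the Src carriers, and NOR library 2 of HBx,Src(p53-) was the lowest of 16. glulb encodes a glutamine synthetase. glulb had 5.88 and 11.5 FPKM on DIO, against 5.11 and 0.857 FPKM on NOR, in HBx,Src(p53-), a difference of 1.46, and 3.86 FPKM on DIO and 10.7 FPKM on FAT, against 0.847 and 1.65 FPKM on NOR, in Src(p53-), a difference of 1.77. For glulb, HBx(p53-) had 4.52 FPKM on DIO and 7.03 FPKM on FAT, against 2.15 and 3.17 FPKM on NOR (0.88), and WT had 1.83 FPKM on DIO and 14.9 FPKM on FAT, against 9.12 and 1.64 FPKM on NOR (0.38). It was the one gene of the 53 with both obesity libraries above both NOR libraries in HBx(p53-). For gldc, a subunit of the glycine cleavage system, the difference was 1.44 in HBx,Src(p53-), 1.52 in Src(p53-), -0.75 in HBx(p53-), and -0.17 in WT.

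Nucleotide salvage and turnover gave 6 genes, with median differences of 1.75 in HBx,Src(p53-) and 1.15 in Src(p53-). The difference was larger in HBx,Src(p53-) for 5 of them. cdab encodes a cytidine deaminase, which turns cytidine into uridine. The cdab level in HBx,Src(p53-) was 1074 and 3031 FPKM on DIO, against 575 and 88.7 FPKM on NOR, and in Src(p53-) it was 752 FPKM on DIO and 614 FPKM on FAT, against 137 and 315 FPKM on NOR, with differences of 2.99 and 1.71. In HBx(p53-) cdab had 311 FPKM on DIO and 218 FPKM on FAT, against 551 and 682 FPKM on NOR (-1.23), and in WT 330.3 FPKM on DIO and 437 FPKM on FAT, against 770.0 and 361 FPKM on NOR (-0.47). The highest libraries were the DIO libraries of HBx,Src(p53-). adkb, an adenosine kinase, differed by 2.14 in HBx,Src(p53-) and 1.66 in Src(p53-), with 4.43 and 4.76 FPKM in its lowest NOR library of each and 26.2 FPKM or more in all other libraries. For guk1a (guanylate kinase), uprt (named for uracil phosphoribosyltransferase), nme4 (a mitochondrial nucleoside diphosphate kinase), and entpd8 (an enzyme that hydrolyses nucleotides outside the cell), the differences lay between 0.98 and 1.86 in HBx,Src(p53-) and between 1.07 and 1.17 in Src(p53-).

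Genes of lipid, vitamin A, haem, and small-molecule handling were the most numerous, with 9, and held the gene with the largest difference. angptl4 encodes a secreted inhibitor of lipoprotein lipase, which in mammals rises on fasting and under fatty acid sensing receptors. angptl4 differed by 3.88 in HBx,Src(p53-), with 864 and 868 FPKM on DIO, against 36.9 and 90.2 FPKM on NOR, and by 3.69 in Src(p53-), with 1076 FPKM on DIO and 485 FPKM on FAT, against 44.2 and 68.1 FPKM on NOR. The level of angptl4 was 51.6 FPKM on DIO and 479.9 FPKM on FAT, against 152 and 441 FPKM on NOR, in HBx(p53-), and 59.97 FPKM on DIO and 312 FPKM on FAT, against 893 and 57.3 FPKM on NOR, in WT, with differences of -0.71 and -0.72. All 4 obesity libraries of the Src carriers had 485 FPKM or more and all 4 of their NOR libraries 90.2 FPKM or less. Without the src transgene, WT NOR 1 was above 485 FPKM. HBx(p53-) FAT (479.9 FPKM) and HBx(p53-) NOR 2 (441 FPKM) were close below it. The diets overlapped in HBx(p53-) and in WT. acsl4b encodes an acyl-CoA synthetase that activates long polyunsaturated fatty acids. acsl4b had 27.7 and 19.9 FPKM on DIO, against 5.21 and 1.3 FPKM on NOR, in HBx,Src(p53-), a difference of 2.7, and 15.3 FPKM on DIO and 4.95 FPKM on FAT, against 2.22 and 0.844 FPKM on NOR, in Src(p53-), a difference of 2.01. In HBx(p53-) acsl4b had 1.68 FPKM on DIO and 2.0 FPKM on FAT, against 7.21 and 3.92 FPKM on NOR (-1.16), and in WT 1.12 FPKM on DIO and 13.4 FPKM on FAT, against 8.85 and 2.28 FPKM on NOR (-0.04). ucp2 encodes a mitochondrial carrier of the uncoupling protein family. The ucp2 level in HBx,Src(p53-) was 7.19 and 14.4 FPKM on DIO, against 2.72 and 0.916 FPKM on NOR, and in Src(p53-) it was 14.1 FPKM on DIO and 7.06 FPKM on FAT, against 1.92 and 2.75 FPKM on NOR, with differences of 2.07 and 1.74. The level of ucp2 was 7.81 FPKM on DIO and 2.22 FPKM on FAT, against 5.27 and 15.5 FPKM on NOR, in HBx(p53-), and 2.78 FPKM on DIO and 1.91 FPKM on FAT, against 24 and 1.82 FPKM on NOR, in WT, with differences of -0.94 and -1.34. Both genes were highest in a library of a Src carrier or in WT NOR 1. aqp10a encodes an aquaporin that passes water and glycerol. aqp10a differed by 1.69 in HBx,Src(p53-), with 34.8 and 49.3 FPKM on DIO, against 12.5 and 11.9 FPKM on NOR, and by 1.92 in Src(p53-), with 12 FPKM on DIO and 21.6 FPKM on FAT, against 2.43 and 4.92 FPKM on NOR. For aqp10a, HBx(p53-) had 3.6 FPKM on DIO and 2.86 FPKM on FAT, against 14.9 and 15.5 FPKM on NOR (-1.94), and WT had 4.43 FPKM on DIO and 6.41 FPKM on FAT, against 30.4 and 1.92 FPKM on NOR (-0.59). Its diet order was reversed between the Src carriers and HBx(p53-), with no overlap in either.

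hmox1a, of the same group, encodes haem oxygenase, which breaks down haem and is induced by oxidative stress. hmox1a had 58.8 and 213 FPKM on DIO, against 19.3 and 7.75 FPKM on NOR, in HBx,Src(p53-), a difference of 3.08, and 27.6 FPKM on DIO and 28 FPKM on FAT, against 4.7 and 17.3 FPKM on NOR, in Src(p53-), a difference of 1.5. The level of hmox1a was 51.5 FPKM on DIO and 17.5 FPKM on FAT, against 9.47 and 247 FPKM on NOR, in HBx(p53-), and 149.7 FPKM on DIO and 0.729 FPKM on FAT, against 0.63 and 53.4 FPKM on NOR, in WT, with differences of -0.71 and 0.78. In the fish without src it ran from 0.63 to 247 FPKM, and the libraries of one diet did not lie together. lrata (which esterifies retinol for storage), sult1st2 (a cytosolic sulfotransferase of a large family), sephs1 (a selenophosphate synthetase relative), and serinc1 (a serine incorporator family member) differed by 1.35 to 2.48 in HBx,Src(p53-) and by 1.18 to 1.57 in Src(p53-). Of these, serinc1 was the one with both obesity libraries above both NOR libraries in WT as well, at 266 FPKM on DIO and 286 FPKM on FAT, against 179 and 119 FPKM on NOR.

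Genes for the nucleolus, RNA polymerase III, and modification of RNA or ribosomes gave 6 members, with a median difference of 2.76 in HBx,Src(p53-) and 1.33 in Src(p53-). Of the 6, 5 had both obesity libraries below both NOR libraries in HBx(p53-), and 5 in WT, where 17.2% and 11% of the 3212 eligible genes did so. Of all 53 genes, 41.5% did so in HBx(p53-) and 22.6% in WT. The group was formed after these values were seen, so nothing is read from its shares. utp3 encodes a protein of the small-subunit processome, the particle in which yeast and human cells cut the precursor of the small ribosomal RNA. The utp3 level in HBx,Src(p53-) was 299 and 351 FPKM on DIO, against 84.4 and 12.2 FPKM on NOR, and in Src(p53-) it was 58.4 FPKM on DIO and 41.8 FPKM on FAT, against 9.02 and 27.7 FPKM on NOR, with differences of 3.28 and 1.57. For utp3, HBx(p53-) had 37.1 FPKM on DIO and 14.8 FPKM on FAT, against 48.6 and 109 FPKM on NOR (-1.59), and WT had 45.6 FPKM on DIO and 14.2 FPKM on FAT, against 60.1 and 45.6 FPKM on NOR (-1.0). Its DIO libraries in HBx,Src(p53-) stood above every other library. In WT, utp3 was lower on DIO than in NOR library 2 only before rounding (45.582 and 45.605 FPKM). mettl18 encodes a methyltransferase that in human cells modifies a histidine of a ribosomal protein. mettl18 differed by 2.25 in HBx,Src(p53-), with 25.5 and 34.1 FPKM on DIO, against 10.7 and 2.53 FPKM on NOR, and by 2.35 in Src(p53-), with 5.8 FPKM on DIO and 4.45 FPKM on FAT, against 0 and 0.432 FPKM on NOR. In HBx(p53-) mettl18 had 4.38 FPKM on DIO and 1.37 FPKM on FAT, against 10.2 and 5.19 FPKM on NOR (-1.22), and in WT 4.4 FPKM on DIO and 0.491 FPKM on FAT, against 8.51 and 5.44 FPKM on NOR (-1.46). trdmt1 encodes a methyltransferase of transfer RNA. trdmt1 had 21.8 and 19.5 FPKM on DIO, against 0.802 and 1.05 FPKM on NOR, in HBx,Src(p53-), a difference of 3.49, and 5.02 FPKM on DIO and 2.74 FPKM on FAT, against 1.36 and 1.8 FPKM on NOR, in Src(p53-), a difference of 0.88. For trdmt1, HBx(p53-) had 2.37 FPKM on DIO and 2.17 FPKM on FAT, against 4.81 and 8.95 FPKM on NOR (-1.22), and WT had 0.235 FPKM on DIO and 1.75 FPKM on FAT, against 6.37 and 2.85 FPKM on NOR (-1.53). In all 4 types the obesity and NOR libraries of trdmt1 did not overlap, higher on obesity in the Src carriers and lower in the others. polr3gla, a subunit of RNA polymerase III, had 123 and 263 FPKM on DIO, against 47.3 and 5.62 FPKM on NOR in HBx,Src(p53-) and 25.1 FPKM on DIO and 19.2 FPKM on FAT, against 7.2 and 8.9 FPKM on NOR in Src(p53-). In HBx(p53-) polr3gla had 25.3 FPKM on DIO and 11.8 FPKM on FAT, against 27 and 75.9 FPKM on NOR, and in WT it had 31.2 FPKM on DIO and 22.3 FPKM on FAT, against 72.3 and 76 FPKM on NOR. The same order without overlap held for dnttip2, a nucleolar protein, with differences of 1.64 and 1.32 in the Src carriers, -1.33 in HBx(p53-), and -0.95 in WT. For gtpbp10, which in human cells helps build the mitochondrial ribosome, the differences were 1.31, 1.05, -0.79, and -0.26 in the same order of types, with overlap in HBx(p53-) and WT.

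Chromatin and transcription regulators gave 7 genes, with median differences of 1.67 in HBx,Src(p53-) and 1.2 in Src(p53-). btg3 encodes an antiproliferative protein of the BTG/TOB family. The btg3 level in HBx,Src(p53-) was 46.5 and 47.6 FPKM on DIO, against 36.8 and 7.43 FPKM on NOR, and in Src(p53-) it was 40.4 FPKM on DIO and 39.6 FPKM on FAT, against 7.17 and 7.76 FPKM on NOR, with differences of 1.43 and 2.28. In HBx(p53-) btg3 had 13.3 FPKM on DIO and 1.72 FPKM on FAT, against 21 and 16.3 FPKM on NOR (-1.65), and in WT 19.6 FPKM on DIO and 7.35 FPKM on FAT, against 59.6 and 24.1 FPKM on NOR (-1.57). Its obesity libraries lay below NOR without overlap in HBx(p53-) and in WT. klf11a encodes a zinc finger factor whose human relative regulates glucose and lipid genes. klf11a differed by 1.67 in HBx,Src(p53-), with 26 and 22.4 FPKM on DIO, against 15.2 and 2.85 FPKM on NOR, and by 1.2 in Src(p53-), with 41.8 FPKM on DIO and 35.4 FPKM on FAT, against 14.3 and 18.3 FPKM on NOR. The level of klf11a was 6.29 FPKM on DIO and 11.3 FPKM on FAT, against 16.2 and 16.1 FPKM on NOR, in HBx(p53-), and 2.92 FPKM on DIO and 20.05 FPKM on FAT, against 12.5 and 6.17 FPKM on NOR, in WT, with differences of -0.86 and -0.11. pcgf5b (a subunit of Polycomb repressive complex PRC1) and aebp2 (an accessory subunit of PRC2) had differences of 1.75 and 1.82 in HBx,Src(p53-), and of 0.97 and 1.25 in Src(p53-). phf6, ing5a (a histone mark reader of acetyltransferase complexes), and usp44 (a histone deubiquitinase) differed by 1.24 to 2.18 in HBx,Src(p53-) and by 0.81 to 1.5 in Src(p53-).

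Stress, cell-death, and antiviral genes gave 4 members. baxa encodes the pro-apoptotic protein BAX, a p53 target in mammals. baxa had 59.6 and 61.7 FPKM on DIO, against 34.5 and 15.9 FPKM on NOR, in HBx,Src(p53-), a difference of 1.33, and 20.7 FPKM on DIO and 27.4 FPKM on FAT, against 10.4 and 8.07 FPKM on NOR, in Src(p53-), a difference of 1.29. In HBx(p53-) baxa had 23.6 FPKM on DIO and 1.55 FPKM on FAT, against 18.5 and 30.4 FPKM on NOR (-1.64), and in WT 29.2 FPKM on DIO and 21.2 FPKM on FAT, against 69.5 and 31 FPKM on NOR (-0.88). Both types of Src carrier, and HBx(p53-), have the p53 mutation. hsc70 encodes a chaperone of the Hsp70 family, whose members are close in sequence, so that reads may have been shared among them. The hsc70 level in HBx,Src(p53-) was 72.8 and 162 FPKM on DIO, against 34.4 and 27.3 FPKM on NOR, and in Src(p53-) it was 19.9 FPKM on DIO and 16.7 FPKM on FAT, against 3.51 and 5.07 FPKM on NOR, with differences of 1.79 and 1.88. The level of hsc70 was 91.6 FPKM on DIO and 44.3 FPKM on FAT, against 124 and 66.7 FPKM on NOR, in HBx(p53-), and 0.365 FPKM on DIO and 0.975 FPKM on FAT, against 2.39 and 0 FPKM on NOR, in WT, with differences of -0.51 and -0.17. Levels of hsc70 ranged from 0 to 2.39 FPKM in WT, from 3.51 to 19.9 FPKM in Src(p53-), and from 27.3 to 162 FPKM in the types that carry HBx. rsad2 encodes viperin, an interferon-induced antiviral enzyme. rsad2 differed by 2.65 in HBx,Src(p53-), with 13.9 and 139.6 FPKM on DIO, against 5.72 and 6.93 FPKM on NOR, and by 2.0 in Src(p53-), with 17.6 FPKM on DIO and 13.2 FPKM on FAT, against 4.32 and 2.07 FPKM on NOR. For rsad2, HBx(p53-) had 0.3 FPKM on DIO and 11.1 FPKM on FAT, against 2.6 and 3.17 FPKM on NOR (0.04), and WT had 0 FPKM on DIO and 2.65 FPKM on FAT, against 2.33 and 2.49 FPKM on NOR (-0.83). A single library, HBx,Src(p53-) DIO 2, held most of its signal. cry-dash, a relative of the photolyases, differed by 3.01 in HBx,Src(p53-), where 1 NOR library listed it at 0, and by 1.41 in Src(p53-).

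Matrix, keratin, and junction genes gave 3 members. loxl2a encodes a lysyl oxidase-like enzyme that crosslinks collagen and elastin. loxl2a had 63.3 and 132 FPKM on DIO, against 21.2 and 1.29 FPKM on NOR, in HBx,Src(p53-), a difference of 3.7, and 16.1 FPKM on DIO and 72.2 FPKM on FAT, against 1.01 and 9.5 FPKM on NOR, in Src(p53-), a difference of 2.94. The level of loxl2a was 8.4 FPKM on DIO and 43 FPKM on FAT, against 9.81 and 3.61 FPKM on NOR, in HBx(p53-), and 66.2 FPKM on DIO and 12.2 FPKM on FAT, against 32.2 and 6.46 FPKM on NOR, in WT, with differences of 1.53 and 0.92. The NOR libraries of each Src carrier lay far apart. krt91 encodes a keratin. The krt91 level in HBx,Src(p53-) was 156 and 289 FPKM on DIO, against 30.4 and 70.25 FPKM on NOR, and in Src(p53-) it was 37.9 FPKM on DIO and 32.1 FPKM on FAT, against 5.7 and 13.5 FPKM on NOR, with differences of 2.17 and 1.87. For krt91, HBx(p53-) had 28 FPKM on DIO and 8.82 FPKM on FAT, against 72.7 and 122 FPKM on NOR (-2.49), and WT had 26.3 FPKM on DIO and 30.3 FPKM on FAT, against 86.7 and 11.2 FPKM on NOR (-0.16). Its order in HBx(p53-) was the reverse of that in the Src carriers, again without overlap. pkp3a, a plakophilin of the desmosome, had 45.4 and 61 FPKM on DIO, against 22.9 and 17.6 FPKM on NOR in HBx,Src(p53-), 64.3 FPKM on DIO and 79.5 FPKM on FAT, against 15.8 and 25.6 FPKM on NOR in Src(p53-), and 14.1 FPKM on DIO and 14.5 FPKM on FAT, against 215 and 10.2 FPKM on NOR in WT. In HBx(p53-) pkp3a had 38.73 FPKM on DIO and 13.2 FPKM on FAT, against 39.9 and 38.66 FPKM on NOR (-0.76), with overlap. The biliary, stellate, macrophage (mostly apoc1), and pancreas marker sums given above moved with diet in Src(p53-), and their part in these 3 genes was not tested.

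Membrane traffic gave 3 genes whose difference was larger in Src(p53-) than in HBx,Src(p53-) in each case. These were tbc1d15 (a GTPase-activating protein for Rab proteins), rab40b (a small GTPase), and reep3b (an endoplasmic reticulum shaping protein), with 1.99, 2.2, and 1.46 in Src(p53-), beside 1.41, 1.33, and 0.94 in HBx,Src(p53-). A further 7 genes have other roles or roles not given here. gbp encodes a protein that binds and inhibits the kinase GSK3, known from frog and fish embryos. gbp differed by 2.05 in HBx,Src(p53-), with 16.5 and 40.03 FPKM on DIO, against 4.4 and 6.73 FPKM on NOR, and by 2.14 in Src(p53-), with 51.2 FPKM on DIO and 22.5 FPKM on FAT, against 6.96 and 6.9 FPKM on NOR. In HBx(p53-) gbp had 3.44 FPKM on DIO and 12.5 FPKM on FAT, against 28.5 and 16.1 FPKM on NOR (-1.54), and in WT 5.53 FPKM on DIO and 18.4 FPKM on FAT, against 15.2 and 1.18 FPKM on NOR (0.92). ppdpfa is named for a pancreatic progenitor factor. ppdpfa had 97.6 and 345 FPKM on DIO, against 35 and 50.5 FPKM on NOR, in HBx,Src(p53-), a difference of 2.1, and 293 FPKM on DIO and 68.9 FPKM on FAT, against 22.8 and 21.7 FPKM on NOR, in Src(p53-), a difference of 2.62. For ppdpfa, HBx(p53-) had 180.2 FPKM on DIO and 68.6 FPKM on FAT, against 58.3 and 279.6 FPKM on NOR (-0.2), and WT had 141 FPKM on DIO and 33.8 FPKM on FAT, against 180.3 and 11.3 FPKM on NOR (0.57). npdc1a is named for a neural proliferation control protein. The npdc1a level in HBx,Src(p53-) was 22.8 and 11.8 FPKM on DIO, against 7.03 and 7.5 FPKM on NOR, and in Src(p53-) it was 15.5 FPKM on DIO and 28.3 FPKM on FAT, against 9.49 and 6.39 FPKM on NOR, with differences of 1.08 and 1.32. In HBx(p53-) npdc1a had 11.1 FPKM on DIO and 4.82 FPKM on FAT, against 7.41 and 0 FPKM on NOR (1.53), and in WT 7.79 FPKM on DIO and 4.41 FPKM on FAT, against 18.5 and 1.81 FPKM on NOR (-0.1). wbp1lb, ubald1b, LOC100499487, and si:ch211-79k12.1 complete the set. si:ch211-79k12.1 was the gene closest to the threshold, at 0.81 in HBx,Src(p53-). si:ch211-79k12.1 differed by 0.81 in HBx,Src(p53-), with 20.9 and 24.6 FPKM on DIO, against 12.3 and 12.7 FPKM on NOR, and by 1.24 in Src(p53-), with 11 FPKM on DIO and 23.1 FPKM on FAT, against 4.53 and 8.44 FPKM on NOR. The level of si:ch211-79k12.1 was 9.42 FPKM on DIO and 10.3 FPKM on FAT, against 8.53 and 14.2 FPKM on NOR, in HBx(p53-), and 11.7 FPKM on DIO and 7.13 FPKM on FAT, against 10.1 and 0.553 FPKM on NOR, in WT, with differences of -0.15 and 1.29. Its libraries overlapped between diets in HBx(p53-) and WT.

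**Figure D2:**
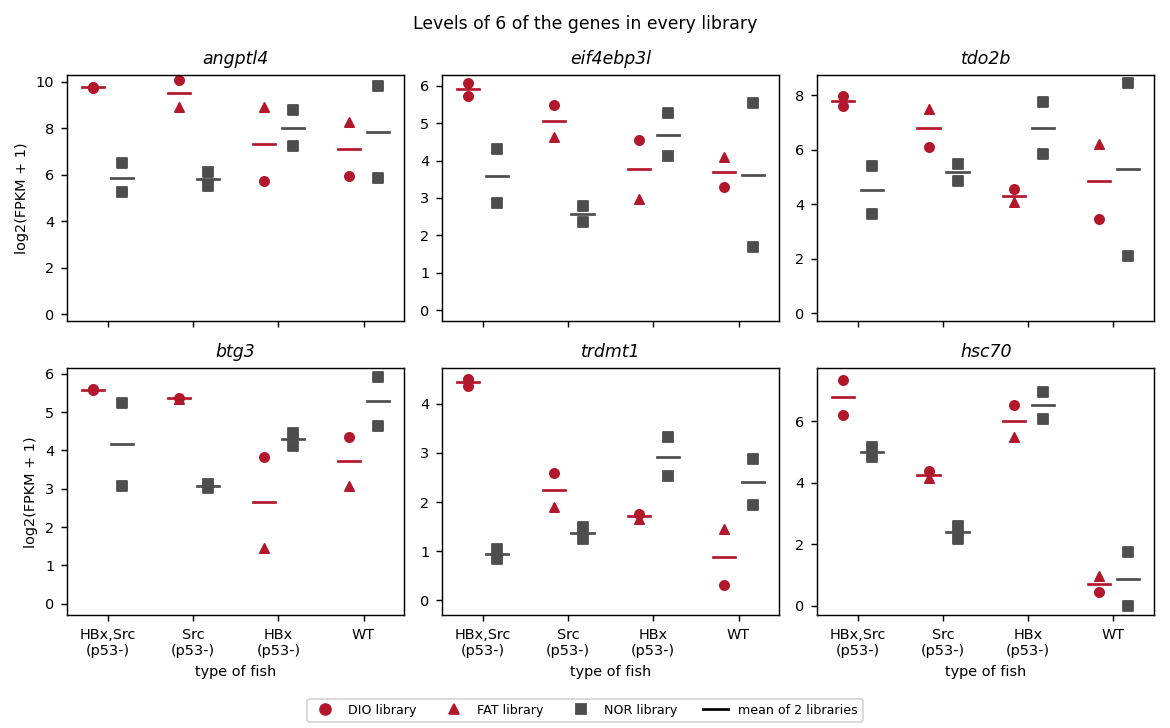
Levels of 6 genes in every library, as log2(FPKM + 1), by type of fish, with obesity libraries (red, circles for DIO and triangles for FAT) left of NOR libraries (grey squares). Bars are means of 2 libraries. The diets separate in both Src carriers by the rule, trdmt1 and btg3 have the reverse order in HBx(p53-) and WT, and hsc70 is near 0 in WT.

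Just inside the threshold of 0.8 lay si:ch211-79k12.1 (0.81 in HBx,Src(p53-)), ing5a (0.81 in Src(p53-)), and trdmt1 (0.88 in Src(p53-)). Just outside, by their Src(p53-) difference, lay utp23 at 0.796, thfp5 at 0.79, and mapkapk2a at 0.78, whose HBx,Src(p53-) differences were 1.76, 3.58, and 0.92. In mean level, pcgf5b at 5.1 FPKM and trdmt1 at 5.22 FPKM were the lowest taken, and shq1 at 4.99 FPKM, zgc:113227 at 4.84 FPKM, and lrig3 at 4.57 FPKM were left out. In Src(p53-) alone 214 genes (6.66% of the eligible) met the thresholds, and in HBx,Src(p53-) alone 496 (15.4%). The set depended on single libraries. Without HBx,Src(p53-) NOR 2 the rule found 43 genes, 40 of them in the set, and without HBx,Src(p53-) NOR 1 it found 105, with 50 shared. Without Src(p53-) NOR 2 it found 89, with 52 shared, and without Src(p53-) FAT 93, with 50 shared. Leaving out Src(p53-) NOR 1 gave 53, with 43 shared, and leaving out Src(p53-) DIO gave 56, with 47 shared. Leaving out DIO library 1 or 2 of HBx,Src(p53-) gave 76 and 60, with 52 and 48 shared.

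The question left by that choice is how the same 53 genes stood on the obesity diet in fish without the src transgene. In HBx(p53-) most were lower. On the obesity diet, 44 of the 53 had a lower mean (83.0%, against 58.7% of the eligible genes), and 22 had both obesity libraries below both NOR libraries (41.5%, where 17.2% of the eligible genes did so). Only glulb lay above without overlap, where 10.2% of the eligible genes did so. The median difference was -0.78, against -0.10 over the eligible genes. The lowest values were those of krt91 (-2.49), tdo2b (-2.48), and agxtb (-2.08), and the highest those of npdc1a (1.53), loxl2a (1.53), and glulb (0.88). With limma across all 33727 genes tested, 0 of the 53 passed an adjusted p of 0.05 in either direction, beside 0.0237% of all genes called lower and 0 called higher. At an unadjusted p under 0.05 there were 3 lower and 0 higher, where 2.3% and 0.623% of the eligible genes were: krt91 (SE 0.866, adjusted p = 0.995), trdmt1, and aqp10a. The HBx(p53-) FAT library was lower than NOR for 44 genes with a median of -1.08, against -0.30 over the eligible genes. The DIO library was lower for 38 genes with a median of -0.41, against 0.10 over the eligible genes. Without the DIO library, baxa passed (-3.28, adjusted p = 0.0411), where 0.0563% of all genes were called lower, on a single remaining obesity library that is assumed to vary like the other groups. Marker sums moved with diet here as well: hepatocyte markers summed to 17240.0 to 17746 FPKM on the obesity diet, against 19850.0 to 32401 FPKM on NOR, biliary markers to 83.7 to 90.5 against 169 to 179 FPKM, and adipocyte markers (4 of 6 matched, with adipoqb and lepa at 0 throughout) to 17.5 to 18.2 against 24.7 to 40.3 FPKM. T and B cell markers and intestine markers were higher, at no more than 9.21 FPKM in any HBx(p53-) library, and the part of these lists in the lower values of the 53 genes was not tested.

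In WT the 53 genes showed no common direction. Of the 53, 32 were lower (60.4%, against 50.2% of the eligible genes) and 21 higher, with a median of -0.17 against 0.00 over the eligible genes. Without overlap, 12 were lower (22.6%, where 11% of the eligible genes were) and 2, adkb and serinc1, were higher (3.77%, where 10.7% were). The WT libraries of adkb were nearly tied, with a difference of 0.11. It had 43.07 FPKM on DIO and 47.3 FPKM on FAT, against 41.06 and 42.71 FPKM on NOR. limma called 0 of them, where 0.0474% of all genes were called lower and 0.0237% higher, and 1, trdmt1, had an unadjusted p under 0.05, where 0.467% of the eligible genes were lower at that level and 1.99% higher (-1.53, SE 0.478, limma adjusted p = 1). The WT values rest on which NOR library is used. WT NOR 1 was above WT NOR 2 for 47 of the 53 genes with a median gap of 1.14, whereas over the eligible genes the median gap was -0.48. The summed FPKM of the 53 genes was 2658 in WT DIO and 3635 in WT FAT, against 8899 in WT NOR 1 and 1757 in WT NOR 2. Against WT NOR 1 alone the obesity libraries had a median difference of -0.96, and against WT NOR 2 alone of 0.62. Of the 53 genes, 31 were below NOR 1 and above NOR 2, 15 were below both, and 6 were above both. Without WT NOR 1, limma called ing5a (2.19, adjusted p = 0.026) and si:ch211-79k12.1 (2.71, adjusted p = 0.0344) higher, where 0.13% of all genes were called higher. Without WT NOR 2 it called pkp3a (-3.82, adjusted p = 0.00694) and aqp10a (-2.31, adjusted p = 0.0387) lower, where 1.72% of all genes were, against 0.0474% with both NOR libraries. In WT, 3 marker lists were higher and 3 lower without overlap, among them the biliary markers, at 97.2 to 102 FPKM on the obesity diet against 103 to 142 FPKM on NOR, and cycling cell markers, at 31.6 to 34.7 against 47.6 to 59.7 FPKM.

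**Figure D3:**
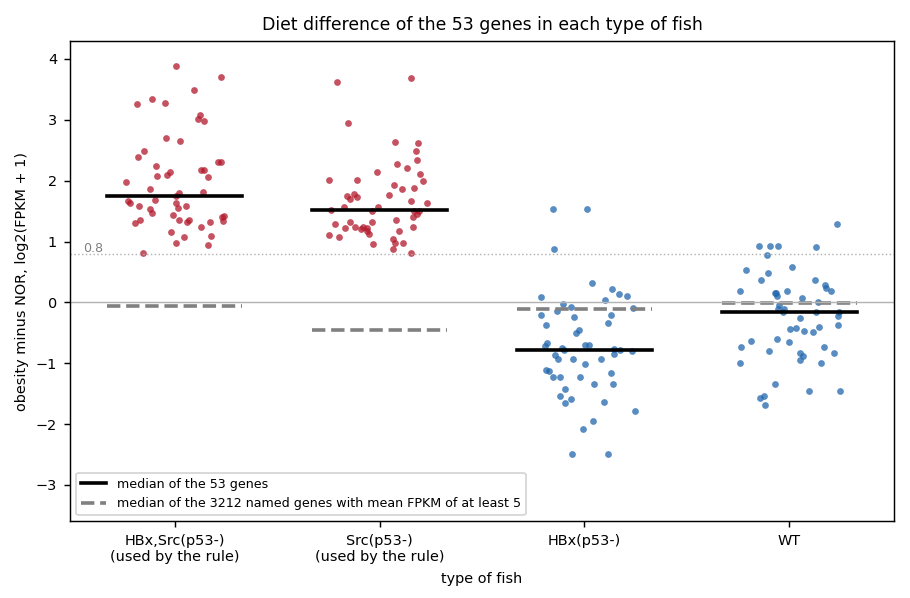
Obesity minus NOR difference in log2(FPKM + 1) of the 53 genes (points) in each type of fish, with the median of the 53 genes (black) and of the 3212 eligible genes (dashed). The Src carriers, whose values chose the genes, have medians of 1.75 and 1.52, HBx(p53-) has -0.78, and WT has -0.17.

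**Figure D4:**
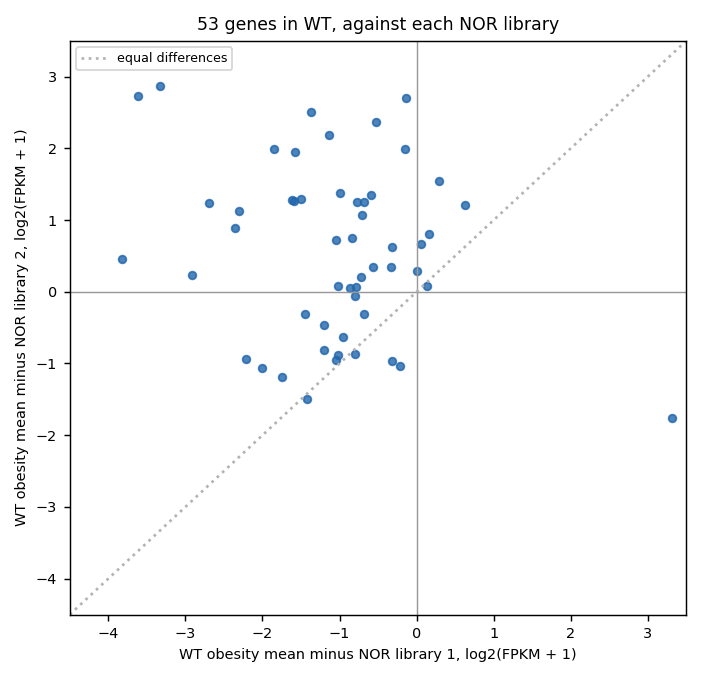
The mean of the WT obesity libraries minus WT NOR library 1 (x axis) and minus WT NOR library 2 (y axis), in log2(FPKM + 1), for the 53 genes. The 31 points of the upper left were lower than NOR 1 and higher than NOR 2, and the point at the far right is hmox1a.

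Over both types without src, the mean of the 2 differences was negative for 41 of the 53 genes and positive for 12, where 55.5% of the eligible genes were negative. The median was -0.45, against -0.05 over the eligible genes. limma called 0 of the 53 at an adjusted p of 0.05, beside 0.0356% of all genes called lower and 0.00889% higher. At an unadjusted p under 0.05, 5 were lower and 0 higher, and 2.43% and 1.99% of the eligible genes were. These were trdmt1 (-1.38, SE 0.338, limma adjusted p = 0.673), btg3 (-1.61, SE 0.599, adjusted p = 0.94), mettl18, polr3gla, and usp44. The adjusted p of trdmt1 ran from 0.0612 to 0.935 over the alternatives. The 3 lowest differences were those of btg3, tdo2b (-1.46, SE 1.18), and agxtb (-1.41, SE 0.812), and the 3 highest those of loxl2a (1.22, SE 0.971), npdc1a (0.72, SE 0.722), and glulb (0.63, SE 0.642). Both types were lower for 28 genes and higher for 5. Of the eligible genes, 50.2% were lower in WT and 58.7% in HBx(p53-), and the share lower in both was not counted, so nothing is read from the 28. In 7 genes both obesity libraries lay below both NOR libraries in each of the 2 types (13.2%, where 3.08% of the eligible genes did so), and these were mettl18, utp3, btg3, polr3gla, dnttip2, pcgf5b, and trdmt1. Without WT NOR 1 the median was -0.04, and without WT NOR 2 it was -0.78 and limma called aqp10a (-2.13, adjusted p = 0.00621) and pkp3a (-2.29, adjusted p = 0.014) lower, where 1.44% of all genes were.

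The diet difference in HBx(p53-) was compared with that in WT by an interaction term. It was lower in HBx(p53-) for 35 genes (56.2% of the eligible genes were), with a median of -0.50, against -0.09 over the eligible genes. limma called 0 of the 53 in either direction, beside 0.0208% of all genes lower and 0.0267% higher. None had an unadjusted p under 0.05, where 0.996% of the eligible genes were lower and 0.125% higher at that level, and the smallest was that of krt91 (-2.33, SE 1.22, limma adjusted p = 1). Without WT NOR 1 the median was -1.17 and aqp10a, ing5a, and tbc1d15 passed as lower in HBx(p53-), with the smallest adjusted p at 0.0192, where 0.107% of all genes were called lower. Without WT NOR 2 the median was 0.20.

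**Figure D5:**
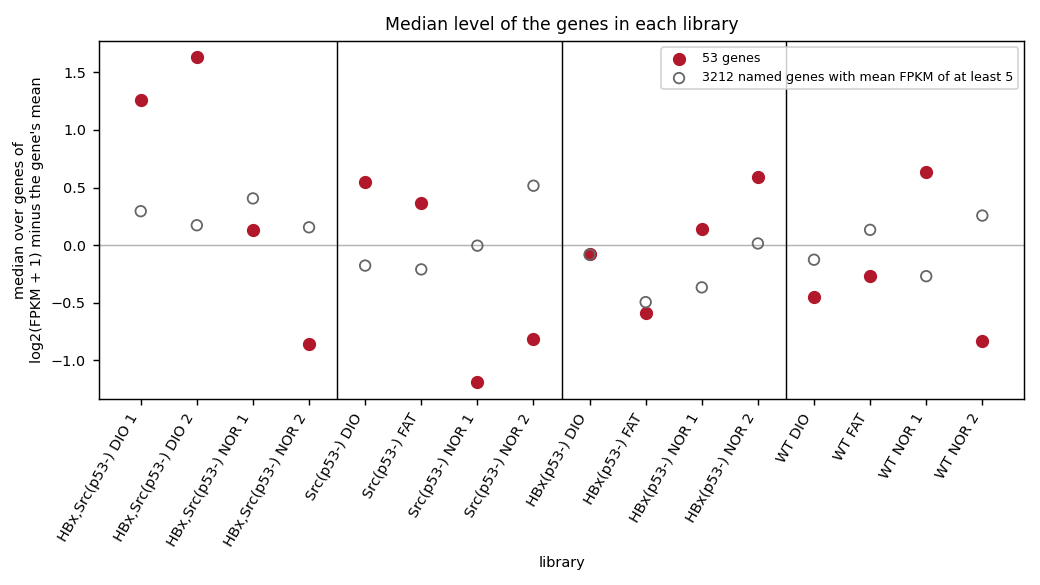
Median over the 53 genes (filled) and over the 3212 eligible genes (open) of log2(FPKM + 1) minus each gene's mean, for each library, with obesity libraries left of NOR libraries in each type. The 53 genes reach 1.26 and 1.63 in HBx,Src(p53-) on DIO, 0.64 in WT NOR 1, and 0.59 in HBx(p53-) NOR 2. They have 0.55 on DIO and 0.36 on FAT in Src(p53-), and fall to -1.19 in Src(p53-) NOR 1.

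Levels of the 53 genes were also compared between HBx(p53-) and WT within a diet. On NOR, 39 were higher and 14 lower in HBx(p53-), where 38.7% of the eligible genes were higher, with a median difference of 0.43, while the median over the eligible genes was -0.19. limma called 1 gene higher, hsc70, and 0 lower, where 0.0801% of all genes were called higher and 0.116% lower. The chaperone gene hsc70 was higher in HBx(p53-) by 5.64 on the log2(FPKM + 1) scale on NOR (SE 0.623, limma adjusted p = 0.00493) and by 5.30 on the obesity diet (SE 0.623, adjusted p = 0.0146). Each of its 4 HBx(p53-) libraries, at 44.3 FPKM or more, was above each of its 4 WT libraries, at 2.39 FPKM or less. The call rested on the spread pooled over all libraries, among them those of the Src carriers, which the rule used. With only the 8 libraries of these 2 types the adjusted p was 0.258 on NOR and 0.216 on the obesity diet. With the replicate block it was 0.155 on NOR. On the obesity diet it was also 0.0556 with a pseudocount of 0.1. Over all alternatives it ran from 0.00037 to 0.258 on NOR and from 0.0032 to 0.216 on the obesity diet, with the same sign. On the obesity diet the median over the 53 genes was 0.00, against -0.28 over the eligible genes. There, 27 were higher (28.7% of the eligible genes were) and 26 lower in HBx(p53-). hsc70 was the 1 gene called, where 0.0356% of all genes were called higher and 0.0563% lower. Without WT NOR 1 the NOR median was 0.98 and 5 genes were called higher (hsc70, ing5a, tbc1d15, si:ch211-79k12.1, and aqp10a), where 0.202% of all genes were, and without WT NOR 2 the median was -0.33. Without HBx(p53-) DIO, baxa was called lower on the obesity diet (-3.35, adjusted p = 0.0339), where 0.0919% of all genes were.

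Other genes of the same pathways were counted in lists written with earlier results of these data known. The lists leave out the symbols set aside by name, among them nop56, nopchap1, and foxo1a, which met the thresholds, so the counts do not cover them. Below, a gene counts as higher or lower when it differed by 0.8 or more without overlap. In the Src carriers the members on a list are higher by the rule, so genes outside the set are counted apart. The medians of the lists take in the members, so in the Src carriers they are not free of the rule. For that reason nothing is read from setting these medians against those of HBx(p53-) and WT. Of the 3212 eligible genes, 15.4% were higher and 18.2% lower in HBx,Src(p53-), 6.66% and 26.9% in Src(p53-), 3.92% and 8.13% in HBx(p53-), and 4.67% and 3.67% in WT. No list held hsc70 or polr3gla. Of 21 other heat shock and chaperone genes, 2 were higher and 4 lower in HBx,Src(p53-), and 1 higher and 6 lower in Src(p53-). Of 10 other genes of RNA polymerases I and III, 4 were higher and 0 lower in HBx,Src(p53-), and 2 higher and 1 lower in Src(p53-).

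The insulin and FoxO response list held 31 genes with 5 FPKM or more, of which klf11a, mknk2b, glulb, and btg3 were in the set. In Src(p53-) the list, with its 4 members taken in, had a median difference of 0.90. There, 12 genes were higher, 8 of them outside the set, and 0 lower. In HBx,Src(p53-) the median was 0.07, with 6 higher, 2 of them outside the set, and 4 lower. In HBx(p53-) it was -0.43, with 3 higher and 14 lower, and in WT -0.23, with 2 higher and 3 lower. Ribosome biogenesis genes stood otherwise in the Src carriers. Of 42 genes, utp3 was the 1 in the set. The median was 1.44 in HBx,Src(p53-) with 24 higher (23 outside the set) and 0 lower. In Src(p53-) it was -0.03 with 2 higher (1 outside the set) and 5 lower. In HBx(p53-) the ribosome list had a median of -0.47 with 0 higher and 8 lower, and in WT of -0.39 with 0 higher and 5 lower. In the list for breakdown of tryptophan, tyrosine, and nucleosides, tdo2b and pah were in the set. Of its 13 genes, 4 were higher (2 outside the set) and 0 lower in HBx,Src(p53-). In Src(p53-) 3 were higher (1 outside the set) and 2 lower. In HBx(p53-) 0 were higher and 8 lower, and in WT 0 were higher and 1 lower. Translation factors and aminoacyl-tRNA synthetases (43 genes) contributed eif4ebp3 and eif4ebp3l. Of these 43, 11 were higher (9 outside the set) and 7 lower in HBx,Src(p53-), and 4 higher (2 outside the set) and 11 lower in Src(p53-). In HBx(p53-) 1 was higher and 0 lower, and in WT 0 were higher and 3 lower. The p53 target list (6 genes) contributed baxa. It had 2 higher (1 outside the set) and 0 lower in each Src-carrying type, and 0 higher and 2 lower in HBx(p53-) and in WT.

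Over both types without src, limma called 0 genes of these lists at an adjusted p of 0.05. At an unadjusted p under 0.05, where 2.01% of all genes were lower and 1.88% higher, 5 of 41 insulin and FoxO response genes were lower and 2 higher, 5 of 58 ribosome biogenesis genes were lower and 0 higher, and 2 of 46 translation genes were lower and 0 higher. Of 17 breakdown genes 1 was lower and 0 higher, and of 18 p53 targets 2 were lower and 1 higher.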

How the data were processed

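Liver RNA of zebrafish was sequenced in 16 libraries. Per the labels, the authors checked reads with FastQC 0.11.5, aligned them to GRCz10 (danRer10) with HISAT2 2.1.0, and assembled transcripts with StringTie 1.3.4d. SAMtools 1.7 and R 3.5.3 are also named. The authors deposited FPKM per assembled gene, normalized to transcript length and mapped fragments, which were used as they are. Of 12235 entries with a RefSeq transcript name, 11763 were matched to a symbol (assembly GRCz12tu, names only), and 17 entries that shared a gene with another were added to it. Values were log2(FPKM + 1). The diet class pooled DIO and FAT. Contrasts were fitted on the 33727 genes above 0 in at least 1 library, with 8 groups of genotype and diet class, by limma 3.58.1 (lmFit and eBayes with trend, Benjamini-Hochberg adjustment) in R 4.3.3. The code was tried on simulated independent values, with each gene's spread cut at the median spread over genes. That run checked the code and says nothing of error rates in these libraries. Tables were made with Python 3.11.15, pandas 2.3.3, and numpy 2.4.6, and drawn with matplotlib 3.10.9.

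The members and the gene lists were chosen with earlier results of these data known. Values in every library are given for the 15 genes with the largest smaller-of-both diet difference, the 3 with the smallest p and the 3 with the largest change in each direction in fish without src, the gene nearest the threshold, and the members on a pathway list (up to 4 a list). hmox1a, polr3gla, and pkp3a were added after their values were seen. Alternatives were a pseudocount of 0.1, scaling to a common sum, quantile normalization, other minimums, one diet alone, the replicate number as a block, and each library left out. The labels do not tie same-numbered libraries to one fish or batch. A search of promoter motifs was not run because promoter sequences were not used here.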

Additional observations from a re-analysis of the deposited data

Results flagged for a closer look

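Below NOR in both types of fish without the src transgene, with no overlap between the 2 obesity and the 2 NOR libraries of either, lay 7 of the 53 genes, while by the rule they were above NOR in both Src carriers. Their mean difference over HBx(p53-) and WT was -1.61 for btg3, an antiproliferative gene, -1.396 for polr3gla, a subunit of RNA polymerase III, and -1.376 for trdmt1, a transfer RNA methyltransferase. For the ribosomal protein methyltransferase gene mettl18 it was -1.342, and for the processome gene utp3 -1.296. It was -1.14 for the nucleolar gene dnttip2 and -0.637 for the Polycomb gene pcgf5b. The difference between carriers and the other fish was not tested, because the carriers' values chose the genes. Some of these genes depended on 1 library of a Src carrier. The rule lost trdmt1 and pcgf5b without Src(p53-) NOR 1 and also without Src(p53-) DIO. It lost btg3 and dnttip2 without HBx,Src(p53-) NOR 2. Of the eligible genes, 99 of 3212 (3.08%) were below NOR in this way.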

How the results depend on the processing

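Quantile normalization gave 98 genes by the rule in place of 53, all 53 among them, and scaling to a common sum gave 56, of which 42 were shared. Leaving out 1 library of a Src carrier gave 43 to 105 genes. The medians of the 53 genes moved most with the WT NOR libraries: leaving out 1 library gave -0.957 to 0.62 in WT, -1.166 to 0.202 for the diet effect of HBx(p53-) minus WT, and -0.328 to 0.979 for HBx(p53-) minus WT on NOR, with WT NOR 2 or WT NOR 1 as the library left out at each end. Called members then ran from 0 to 2 in WT and over both types without src, from 0 to 1 in HBx(p53-), from 0 to 3 for the diet effect, from 1 to 5 for HBx(p53-) minus WT on NOR, and from 1 to 2 on the obesity diet. The single call of hsc70 in HBx(p53-) minus WT was lost, leaving 0, with only the 8 libraries of both types on either diet, and with a pseudocount of 0.1 on the obesity diet. It was also lost on NOR with the replicate block (0 called) and without the block on the same 10 numbered libraries (0 called). Same-numbered libraries had correlations of -0.373 to 0.282 in their deviations, so the numbers were not taken as pairs. No other setting changed a call of the 53 genes in these contrasts. With 2 libraries a group and no read counts, differences near the gap between libraries of one group cannot be resolved. Promoter motifs were not searched.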

Other observations

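Among genes with no name, 97 of the 3585 with a mean of at least 5 FPKM met the same thresholds in both Src-carrying types, and they are not described here. In Src(p53-) the 53 genes had a median difference from the NOR mean of 1.62 in the DIO library and of 1.49 in the FAT library, and that both are above NOR for every gene was fixed by the rule. DIO was above FAT for 36 of them, with a median gap of 0.37, where the median over the eligible genes was 0.01. The rule used both libraries, so nothing is read from this gap. In HBx(p53-) DIO was above FAT for 37, with a median gap of 0.69, beside 0.42 over the eligible genes. Each diet had 1 library in these types, so the diets and the libraries cannot be told apart.

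The NOR libraries of HBx,Src(p53-) also differed in the 53 genes. Library 1 was above library 2 for 36, with a median gap of 0.88, beside 0.23 over the eligible genes, and the median size of the gap was 1.18 for the 53 genes and 0.59 for the eligible ones. Library 2 was the lowest of all 16 for 13 of the genes, among them cdab, agxtb, and pah, 3 enzymes of nucleoside and amino acid metabolism. Src(p53-) NOR 1 was the lowest for 13 and WT NOR 2 for 12. The rule used the NOR values of the Src carriers, so nothing is read from their gaps or ranks.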
